A study of Mus musculus with 6 samples.

Results

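Expression of 8 genes around PI3K and AKT signalling was described in mouse embryonic stem cells: the AKT coactivator Tcl1, the embryonic stem cell RAS protein gene Eras, the kinase genes Akt1, Akt2 and Pdpk1, the PI3K subunit genes Pik3ca and Pik3r1, and the mTORC1 inhibitor gene Ddit4. They were taken by symbol from a deposited table of 24083 genes, and all 8 were found there. The table came from polyadenylated RNA of 6 libraries. In 3 of them the cells had wild-type Nanog (WT), and in the other 3 Nanog R153A, an arginine-to-alanine form of this homeodomain pluripotency factor. All cells were mouse embryonic stem cells on gelatin in medium with fetal bovine serum and the cytokine LIF, with no further treatment. The strain and sex of the cells, how R153A was introduced, the number of clones, and whether replicates were separate cultures are not stated in the labels, so p-values measure only the spread between these libraries, which may be technical.

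In this pathway, receptors and RAS proteins recruit and activate PI3K, a heterodimer of a catalytic p110 and a regulatory p85-type subunit, at the plasma membrane. The lipid it makes, PIP3, brings AKT kinases to the membrane, where the kinase PDPK1 (PDK1) phosphorylates them. AKT then acts on FOXO factors, GSK3 and the TSC complex, which holds back mTORC1. In mouse embryonic stem cells the constitutively active ERAS and the AKT-binding protein TCL1 are known for feeding this route in the undifferentiated state.

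Of the 8 genes, Tcl1, Eras and Pdpk1 were lower in R153A, Akt1 and Ddit4 were higher, and Akt2, Pik3ca and Pik3r1 did not pass the test. The largest of the 8 differences was that of Tcl1, at 7.33-fold, and the next was that of Ddit4, at 2.18-fold. All 8 reached 1 FPKM (fragments scaled to gene length and library size) in every library, so none entered the test through 1 group alone. The test was limma on log2(FPKM + 1), with p-values adjusted over the 11817 genes that reached 1 FPKM in at least 3 libraries and calls made at an adjusted p under 0.05. By that rule 5 of the 8 genes (62.5%) were called, against 59.8% of all genes tested, so the number called was near the background. Genes called lower numbered 3 of 8 (37.5%), against 22.3% of all genes tested, and genes called higher 2 of 8 (25%), against 37.5%. Values are FPKM, given as mean ± SD of 3 libraries, and a log2 fold change is the R153A mean of log2(FPKM + 1) less the WT mean, which shrinks the changes of weakly expressed genes.

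The 250 bases before the annotated start of Tcl1, Eras and Ddit4 are shown because Tcl1 and Eras are the members most particular to embryonic stem cells by background and Ddit4 had the largest rise of the 8. The sequences are from RefSeq (GRCm38.p6, another build than the mm9 named for the deposited data), read 5′ to 3′ on the strand of the gene. All lie on the minus strand, Tcl1 at chr12:105222738-105222987, Eras at chrX:7928608-7928857 and Ddit4 at chr10:59951771-59952020. Capitals mark matches to the motifs searched, on either strand.
Tcl1: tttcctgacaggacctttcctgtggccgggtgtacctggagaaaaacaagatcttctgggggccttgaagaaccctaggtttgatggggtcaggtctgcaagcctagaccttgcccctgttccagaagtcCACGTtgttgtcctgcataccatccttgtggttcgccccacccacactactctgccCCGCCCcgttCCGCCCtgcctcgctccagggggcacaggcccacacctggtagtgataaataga
Eras: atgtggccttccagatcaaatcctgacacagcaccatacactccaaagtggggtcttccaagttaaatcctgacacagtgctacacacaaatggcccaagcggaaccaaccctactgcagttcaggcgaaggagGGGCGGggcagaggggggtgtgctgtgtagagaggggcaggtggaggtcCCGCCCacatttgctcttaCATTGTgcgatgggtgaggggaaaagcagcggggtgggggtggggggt
Ddit4: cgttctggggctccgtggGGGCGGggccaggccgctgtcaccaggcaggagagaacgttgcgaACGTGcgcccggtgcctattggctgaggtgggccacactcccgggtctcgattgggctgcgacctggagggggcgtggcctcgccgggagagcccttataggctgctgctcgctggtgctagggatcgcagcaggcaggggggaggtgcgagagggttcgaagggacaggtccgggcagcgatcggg
The motifs searched on both strands were the POU octamer ATGCAAAT, the SOX core ACAATG, the NANOG homeodomain core TAATGG, the GC box GGGCGG, the hypoxia response core ACGTG and the FOXO core GTAAACA. The Tcl1 window held 2 GC boxes, 64 to 59 and 54 to 49 bases before the start, and 1 hypoxia response core. The Eras window held 2 GC boxes and 1 SOX core, 48 to 43 bases before the start. The Ddit4 window held 1 GC box and 1 hypoxia response core, 187 to 183 bases before the start. Among 32851 RefSeq promoter windows of this length, 32.7% held the GC box, 16.6% the hypoxia response core, 10.7% the SOX core, 6.57% the NANOG core, 3.17% the FOXO core and 1.6% the octamer. The letters of the octamer, of the NANOG core and of the FOXO core are not in these 3 windows, which says nothing of the factors elsewhere at these genes. The windows were 57.6% GC for Tcl1, 58% for Eras and 70% for Ddit4, against a median of 52.4%.

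Tcl1 encodes a small protein that binds AKT kinases and promotes their activation. Its levels were 54.1, 52.5 and 54.5 FPKM (WT) and 6.69, 8.23 and 7.06 FPKM (R153A). All 3 R153A libraries were far below all 3 WT libraries, and the groups did not overlap, as in 65.0% of all genes tested. The mean was 7.33-fold lower in R153A (log2 fold change -2.72, SE 0.0687, limma adjusted p = 3.2e-10). Of the 11817 genes tested, Tcl1 had the lowest log2 fold change, but its place from the bottom was 10 with a pseudocount of 0.1, 7 with a pseudocount of 0.5, 8 after rescaling to TPM and 2 without R153A replicate 2 or 3. Falls of at least 2-fold on the scale of log2(FPKM + 1) were called for 2.31% of the genes tested. That bound leaves out some called genes whose mean FPKM fell more than 2-fold, such as Mras. By level, Tcl1 went from place 1101 of the 24083 genes in WT to place 6611 in R153A.

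The other TCL1 family genes were at low levels. Tcl1b1 and Tcl1b5 were listed at 0 in all 6 libraries, and Tcl1b2, Tcl1b3 and Tcl1b4 had group means under 0.1 FPKM. Of the 7 family genes only Tcl1 and Mtcp1 were tested. Mtcp1, another AKT-binding member, stood at 4.52, 3.85 and 6.54 FPKM in the 3 WT libraries, against 4.48, 5.66 and 8.63 FPKM in those of R153A, with overlapping groups (limma adjusted p = 0.266). It was called higher when WT replicate 3 was left out and with the replicate number as a block. Tcl1 thus made up 91.4 ± 2.12% of the summed FPKM of the family in WT and 54.5 ± 8.44% in R153A. In RefSeq gene order, the nearest neighbours of Tcl1 in the table were Tcl1b4 on one side and Tunar on the other, and all 8 of its closest neighbours, 4 on each side, were too low to be tested.

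Tcl1 is commonly counted with the genes of naive pluripotency, so 12 of these were set beside it. All 12 fell (limma), with a median log2 fold change of -1.97, against 0.071 over all genes tested. The number that fell was 11 in 6 of 15 alternatives, among them those without WT replicate 2 or 3 or without R153A replicate 1 or 2. The weakest of the 12 calls was that of Dppa3, at 43.9 ± 2.69 and 39.2 ± 1.701 FPKM (limma adjusted p = 0.0316). Klf4, a reprogramming factor, stood at 54.02, 57.1 and 56.5 FPKM (WT) and 7.85, 8.07 and 8.04 FPKM (R153A), close to the levels of Tcl1 in both groups. The naive-state regulator Prdm14 fell from 16.1 ± 0.602 to 1.81 ± 0.152 FPKM, and Fgf4, a growth factor made by undifferentiated cells, from 96.3 ± 4.22 to 28.7 ± 0.291 FPKM. Nanog itself fell from 253 ± 10.02 to 123 ± 5.16 FPKM. How R153A was introduced is not stated, so whether transcripts with and without the change were counted alike is unknown. The 5 tested genes whose log2 values followed Tcl1 most closely over the 6 libraries were Palm3, Ckb, Spp1, Slc25a5 and Cth, with Pearson r between 0.9992 and 0.9996. The 6 libraries form 2 groups, and 282 genes had an r above 0.99.

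Eras encodes a RAS-like GTPase that is active without stimulation and binds PI3K. It was at 35.8, 35.95 and 35.1 FPKM in the 3 WT libraries, against 27.02, 25.6 and 27.7 FPKM in those of R153A. Every R153A library was below every WT library, by a smaller step than for Tcl1. The mean was 1.33-fold lower in R153A (log2 fold change -0.40, SE 0.0499, limma adjusted p = 4.1e-05), and 67.8% of the genes tested had a smaller change in size. Eras lies on the X chromosome, where 439 genes were tested with a median log2 fold change of -0.018. In RefSeq its gene overlaps Pcsk1n, whose mean was 16.5 FPKM in WT and 24.3 FPKM in R153A (called higher, limma adjusted p = 2.7e-04). The labels do not state whether counting used strand, so reads of the overlap cannot be assigned with certainty. The genes that followed Eras most closely over the 6 libraries were Smad7, Bnc2, Nadk2, Pla2g10 and Rbm47, with Pearson r between 0.998 and 0.9993, and 151 genes had an r above 0.99.

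The other RAS genes did not share the direction of Eras, apart from Mras. All 7 were called, 5 higher and 2 lower, a split that stood under median-ratio scaling, TPM rescaling and quantile normalization. Rras, a RAS relative linked to adhesion, rose from 17.2 ± 2.29 to 34.5 ± 1.03 FPKM, and Hras from 18.99 ± 0.798 to 25.6 ± 0.9697 FPKM. The steps were smaller for Nras, from 18.8 ± 1.33 to 22.5 ± 0.315 FPKM, and for Rras2, from 27.1 ± 1.05 to 31.4 ± 1.22 FPKM. Mras fell from 1.53 ± 0.284 to 0.296 ± 0.106 FPKM and passed the filter only through WT. Eras was the most abundant of the 7 in each WT library, at 25.7 ± 0.803% of their summed FPKM. In R153A its share was 15.2 ± 0.617%, below those of Rras (19.6 ± 0.681%) and Rras2 (17.8 ± 0.811%).

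**Figure D1:**
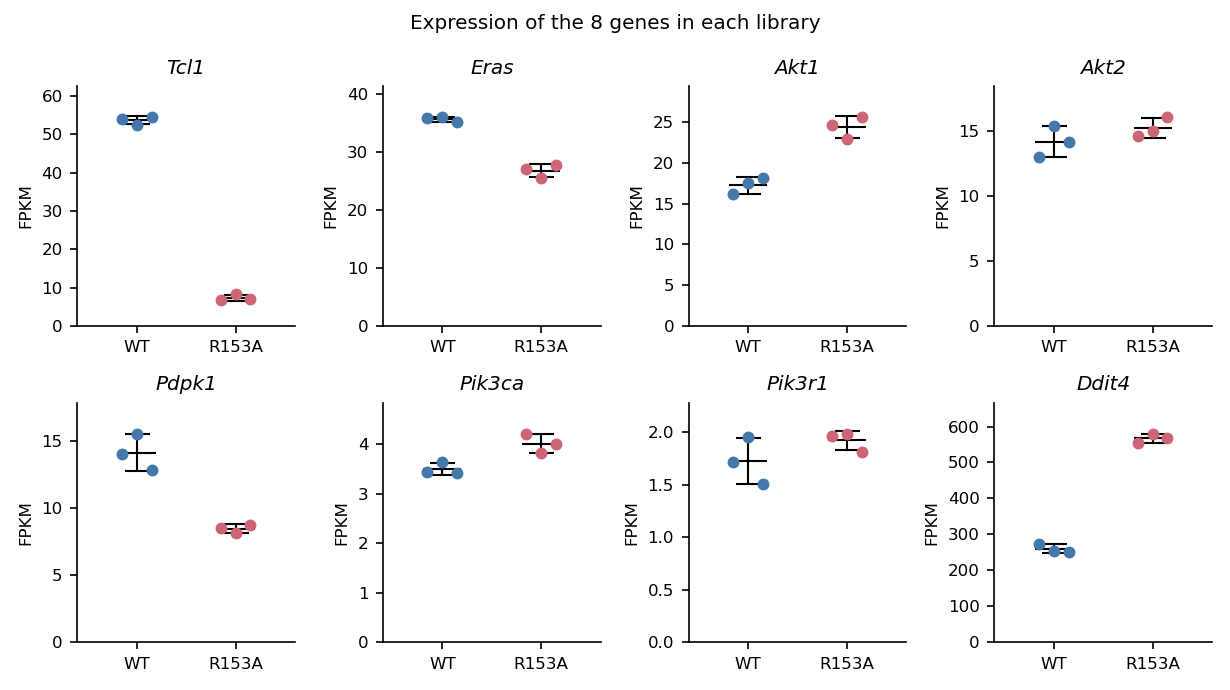
FPKM of the 8 genes (vertical axes, linear from 0) in the WT and R153A libraries. Points are libraries, and black bars are the mean and SD of 3 libraries. Tcl1, Eras and Pdpk1 lie wholly lower in R153A, and Akt1, Pik3ca and Ddit4 wholly higher, while Akt2 and Pik3r1 overlap.

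Of the PI3K genes, Pik3ca encodes the catalytic subunit p110α and Pik3r1 the regulatory subunit p85α. Pik3ca was at 3.45, 3.64 and 3.43 FPKM in the 3 WT libraries, against 4.21, 3.83 and 3.999 FPKM in those of R153A. The R153A libraries were all above the WT libraries by a small margin, and the test was not passed (log2 fold change 0.15, 95% interval -0.00052 to 0.31, limma adjusted p = 0.0791). Without a mean-variance trend it passed (limma adjusted p = 0.0436), and under quantile normalization the log2 fold change was -0.010. Pik3r1 was at 1.72, 1.95 and 1.51 FPKM (WT) and 1.97, 1.99 and 1.82 FPKM (R153A). These groups overlapped (log2 fold change 0.10, 95% interval -0.084 to 0.29, limma adjusted p = 0.317), and the direction turned under quantile normalization (-0.12).

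Neither was the main gene of its kind by level. Among the class I catalytic subunits, Pik3cb (p110β) held 57.9 ± 0.691% of the summed FPKM in WT and 52.7 ± 3.15% in R153A, and Pik3ca 19.2 ± 0.477% and 21.4 ± 0.517%. Among the regulatory subunits, Pik3r2 (p85β) held 83.8 ± 0.810% and 80.5 ± 1.21%, and Pik3r1 10.5 ± 0.894% and 9.87 ± 0.974%. Of the 11 class I genes in the list, 7 were tested, of which 3 rose (Pik3ip1, Pik3r3 and Pik3r2), 0 fell and 4 did not pass. Pik3ip1, which encodes an inhibitor of PI3K, rose from 3.63 ± 0.52 to 6.93 ± 0.175 FPKM. Pik3r3 rose from 0.938 ± 0.0136 to 1.88 ± 0.136 FPKM and passed the filter only through R153A. Pik3r2 stood at 13.8 ± 0.793 and 15.8 ± 1.16 FPKM (limma adjusted p = 0.0398), a call that ended in 10 of 15 alternatives, among them those without WT replicate 1 or 3 or without R153A replicate 1 or 3. Under median-ratio scaling and under quantile normalization 2 of the 7 were called higher and 1 lower.

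Among the kinases, Akt1 encodes the most widely expressed AKT. It was at 16.1, 17.6 and 18.2 FPKM in the 3 WT libraries, against 24.6, 22.9 and 25.6 FPKM in those of R153A. The R153A libraries were all above the WT libraries, with a 1.41-fold higher mean (log2 fold change 0.47, SE 0.0623, limma adjusted p = 6.0e-05). Akt2, the isoform best known for insulin responses, was at 13.04, 15.4 and 14.2 FPKM (WT) and 14.6, 14.98 and 16.1 FPKM (R153A). Its groups overlapped (log2 fold change 0.097, 95% interval -0.054 to 0.25, limma adjusted p = 0.246).

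Pdpk1, whose product phosphorylates the activation loop of AKT and related kinases, went the other way. It was at 14.02, 15.5 and 12.8 FPKM in the 3 WT libraries, against 8.54, 8.101 and 8.71 FPKM in those of R153A. No R153A library reached the lowest WT library, and the mean was 1.67-fold lower (log2 fold change -0.67, SE 0.0728, limma adjusted p = 1.3e-05). Sgk1, a kinase of the same family that PDPK1 also activates, fell further, from 98.5 ± 4.12 to 34.2 ± 3.005 FPKM (log2 fold change -1.50, limma adjusted p = 1.0e-08). Sgk3 stood at 1.13 ± 0.0635 and 1.09 ± 0.152 FPKM, and Sgk2 was too low to be tested.

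**Figure D2:**
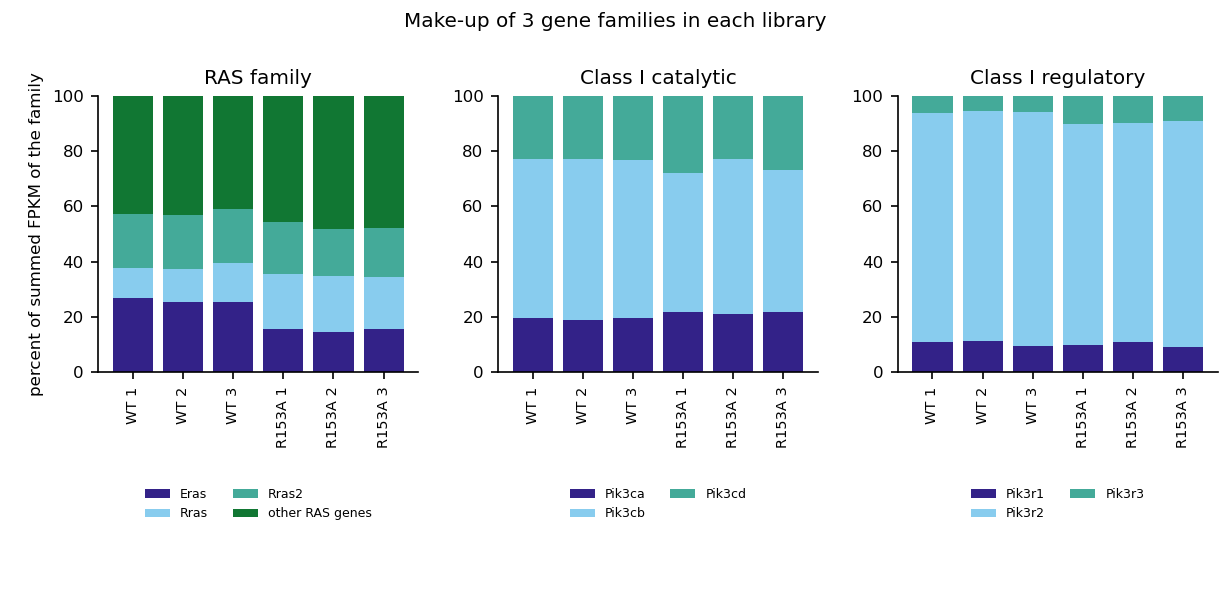
Percent of the summed FPKM (vertical axes) that each gene contributes to its family, with 1 stacked bar per library. RAS genes other than Eras, Rras and Rras2 are drawn together, and genes that never reach 0.2% are not drawn. The Eras share is 25.7% on average in WT and 15.2% in R153A, and the Pik3ca share 19.2% and 21.4%.

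Ddit4 encodes REDD1, a stress-induced protein that inhibits mTORC1 through the TSC complex. It was the most abundant of the 8 genes, at 275, 254 and 252 FPKM (WT) and 555, 579.8 and 569 FPKM (R153A). All 3 R153A libraries lay far above the highest WT value, and the difference on the log2 scale was 1.12 (SE 0.0505, limma adjusted p = 1.3e-08). Rises of at least 2-fold on the scale of log2(FPKM + 1) were called for 5.98% of the genes tested. That bound leaves out some called genes whose mean FPKM rose more than 2-fold, such as Igf1r. Its paralog Ddit4l rose from 1.17 ± 0.301 to 4.03 ± 0.185 FPKM.

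Ddit4 is known to be induced by hypoxia, p53, glucocorticoids and the ATF4 stress response, and 16 genes of these responses were set beside it. Of the 15 tested, 7 rose, 5 fell and 3 did not pass, with a median log2 fold change of 0.016, and under quantile normalization 7 rose and 7 fell. The p53 targets Cdkn1a and Mdm2 rose, Cdkn1a from 20.01 ± 0.628 to 75.5 ± 0.435 FPKM. Among ATF4 targets, Ddit3, Trib3, Chac1 and Asns fell, Ddit3 from 48.6 ± 4.44 to 17.6 ± 0.296 FPKM. Sesn2, which p53 and ATF4 induce, rose from 33.9 ± 3.05 to 43.8 ± 2.31 FPKM, and Atf3 did not pass, at 3.61 ± 0.422 and 3.65 ± 0.267 FPKM. Of 5 tested hypoxia-inducible genes, Egln3, Slc2a1, Bnip3 and Ndrg1 rose and Vegfa fell. Egln3 went from 25.1 ± 2.38 to 59.8 ± 0.402 FPKM, Slc2a1, a glucose transporter gene, from 802 ± 89.2 to 1423 ± 28.2 FPKM, and Vegfa from 50.7 ± 2.601 to 19.7 ± 1.11 FPKM. Tsc22d3 and Per1, which respond to glucocorticoids, stood at 5.56 ± 0.463 and 5.29 ± 0.119 FPKM and at 6.85 ± 0.179 and 6.398 ± 0.423 FPKM.

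The order of the 8 genes by level changed between the groups. In WT it was Ddit4, Tcl1, Eras, Akt1, Akt2, Pdpk1, Pik3ca and Pik3r1, and in R153A it was Ddit4, Eras, Akt1, Akt2, Pdpk1, Tcl1, Pik3ca and Pik3r1. Akt2 and Pdpk1 overlapped in WT. In R153A the libraries of Eras and Akt1 overlapped, as did those of Pdpk1 and Tcl1.

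**Figure D3:**
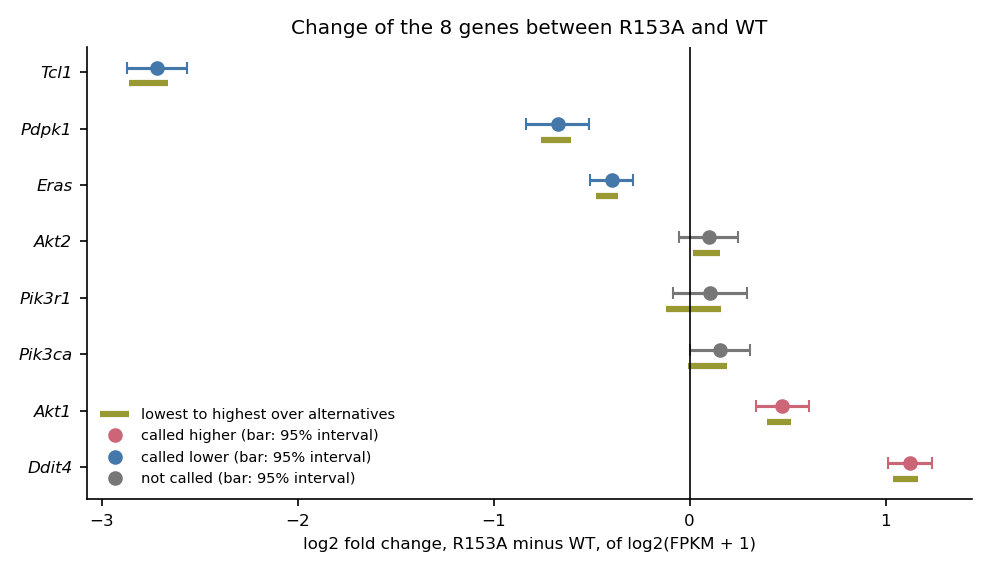
Log2 fold change of log2(FPKM + 1), R153A minus WT (horizontal axis), for the 8 genes. Points and thin bars are the estimate and its 95% interval, and thick bars run from the lowest to the highest estimate over the alternatives. Tcl1 stands at -2.72 and Ddit4 at 1.12, and the intervals of Akt2, Pik3r1 and Pik3ca include 0.

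The rest of the pathway was described with 12 lists that hold 133 genes, 115 of them tested. Of these 54 (47.0%) were called higher and 23 (20.0%) lower, against 37.5% and 22.3% of all genes tested, and the median log2 fold change was 0.14. Under median-ratio scaling 35 were called lower and under quantile normalization 38. Over all 11817 genes tested the falls likewise went from 2634 to 3655 and 3893. The share of falls thus depends on the scaling, in the lists as over all genes. Without the 8 genes, 52 of 107 were called higher and 20 lower. No list was tested as a set.

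Among 14 tested receptors and adaptors, which carry signals to PI3K, 10 rose, 3 fell and 1 did not pass. Irs2, an insulin receptor substrate that recruits PI3K, was at 1.97, 2.12 and 1.85 FPKM in the 3 WT libraries, against 13.3, 11.98 and 12.3 FPKM in those of R153A. Among the tested genes of the pathway lists it had the highest log2 fold change (2.18, limma adjusted p = 1.6e-09). The FGF receptor gene Fgfr1 rose from 13.01 ± 0.394 to 27.5 ± 2.26 FPKM, and the IGF1 receptor gene Igf1r from 2.09 ± 0.0666 to 4.96 ± 0.0582 FPKM. Kit, the stem cell factor receptor, fell from 11.3 ± 0.729 to 2.88 ± 0.382 FPKM. The adaptor Shc1, the most abundant of the list by its mean over all 6 libraries, rose from 33.4 ± 1.82 to 42.3 ± 1.37 FPKM. Grb2, another adaptor, was above Shc1 in each WT library and fell from 39.7 ± 1.25 to 30.3 ± 0.144 FPKM.

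Phosphatases of phosphoinositides and inhibitors of AKT act against the pathway. Of 7 tested phosphoinositide phosphatases, 4 rose, 1 fell and 2 did not pass. The falls numbered 2 without R153A replicate 3, under median-ratio scaling and after rescaling to TPM, and 3 under quantile normalization. Inppl1 (SHIP2) rose from 21.3 ± 0.981 to 33.9 ± 0.898 FPKM, and Inpp5d (SHIP1) fell from 13.9 ± 0.869 to 6.36 ± 0.328 FPKM. Of 11 tested genes in the list of AKT inhibitors, which includes subunits of the phosphatase PP2A, 8 rose, 1 fell and 2 did not pass. The AKT phosphatase gene Phlpp1 rose from 1.42 ± 0.172 to 2.74 ± 0.425 FPKM, and Ppp2ca, the PP2A catalytic subunit, from 113 ± 5.69 to 134 ± 3.404 FPKM. Trib3, a pseudokinase that binds AKT, fell from 33.5 ± 2.398 to 16.9 ± 0.228 FPKM. Of 5 tested genes of class II and III PI3K, 3 fell and 1 rose. The falls numbered 2 without WT replicate 2 or any 1 R153A replicate, and 4 under median-ratio scaling or quantile normalization. Becn1, a partner of the class III enzyme in autophagy, fell from 28.1 ± 0.836 to 24.6 ± 0.597 FPKM.

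Of 16 genes of mTORC1, mTORC2 and TSC, Ddit4 included, 7 rose, 3 fell and 6 did not pass, and under median-ratio scaling or quantile normalization 6 rose and 6 fell. The kinase gene Mtor stood at 10.4 ± 0.619 and 9.86 ± 0.145 FPKM. Prr5l, an mTORC2-associated gene, rose from 0.606 ± 0.04697 to 4.17 ± 0.335 FPKM and passed the filter only through R153A. Akt1s1 (PRAS40), an mTORC1 component that AKT phosphorylates, rose from 12.3 ± 1.26 to 16.4 ± 1.16 FPKM. Of the 16 genes of the amino acid branch, 8 rose, 2 fell and 6 did not pass. The RAG GTPase gene Rragd rose from 4.96 ± 0.523 to 13.7 ± 0.298 FPKM, and Lamtor2, a Ragulator subunit, fell from 88.6 ± 9.66 to 52.3 ± 0.848 FPKM. Of 11 mTORC1 effectors, 2 rose, 4 fell and 5 did not pass, but without WT replicate 2 the rises numbered 4, and under quantile normalization 3 rose and 5 fell. The autophagy kinase gene Ulk1 fell from 50.3 ± 2.32 to 21.4 ± 1.07 FPKM, Tfeb, a lysosomal transcription factor, from 9.97 ± 1.24 to 4.61 ± 0.135 FPKM, and Eif4ebp1, a translation repressor, from 299 ± 18.4 to 219 ± 2.61 FPKM.

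Among 13 tested AKT substrates, 5 rose, 1 fell and 7 did not pass, and the falls numbered 4 under median-ratio scaling and 5 under quantile normalization. Foxo4 rose from 20.4 ± 0.4399 to 29.997 ± 0.661 FPKM, whereas Foxo6 fell from 1.99 ± 0.122 to 0.672 ± 0.03697 FPKM and passed the filter only through WT. Gsk3a stood at 40.96 ± 2.05 and 38.9 ± 0.564 FPKM. Of 13 tested genes that FOXO factors are known to activate, 7 rose, 4 fell and 2 did not pass. The share called was 84.6%, against 59.8% of all genes tested. The falls numbered 5 under median-ratio scaling, after rescaling to TPM, without a trend and without the filter. Under quantile normalization 7 rose and 6 fell. Besides Irs2, the pro-apoptotic gene Bcl2l11 (BIM) rose from 8.003 ± 0.707 to 16.9 ± 1.24 FPKM and Sesn3 from 7.05 ± 0.4703 to 13.1 ± 0.119 FPKM. Gadd45a, a growth arrest gene, fell from 96.2 ± 4.45 to 40.7 ± 3.12 FPKM.

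**Figure D4:**
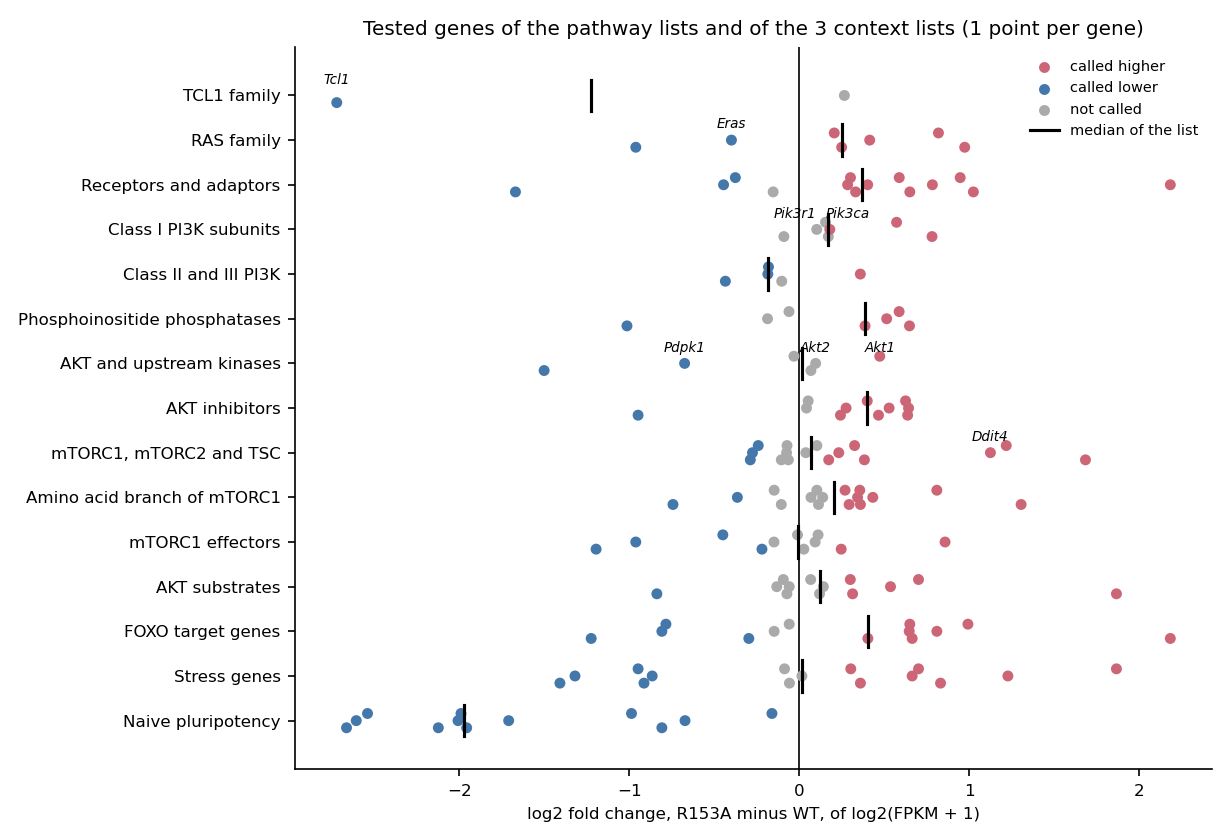
Log2 fold change of log2(FPKM + 1), R153A minus WT (horizontal axis), of each tested gene in the 12 pathway lists and in the lists of FOXO targets, stress genes and naive pluripotency. Each point is 1 gene, coloured by its call, and black bars are list medians. Tcl1, in the row of its family, stands at -2.72, and the median of the naive pluripotency genes, in a row of their own, is -1.97.

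The FPKM of a library summed to between 360152 and 382086, and Pearson r of log2 values across the genes tested was at least 0.995 within groups and at most 0.950 between them. No read counts were given, so the depth behind the values is unknown. Of 8 embryonic stem cell markers, 7 fell and 1 did not pass, with Pou5f1 falling from 688 ± 16.6 to 518 ± 8.84 FPKM. Of 8 fibroblast markers 4 were tested and 2, the collagen genes Col1a1 and Col1a2, rose, with Col1a2 passing the filter only through R153A. The summed FPKM of all 8 markers was between 6.52 and 8.86 in WT and between 10.1 and 10.98 in R153A. Lum was listed at 0 in all WT libraries, and Dcn was under 0.3 FPKM in each library. Primitive endoderm markers summed to between 5.95 and 7.03 FPKM in WT and between 8.03 and 8.89 in R153A. Of the 4 tested, Foxa2 was called higher, from 0.176 ± 0.0811 to 3.398 ± 0.341 FPKM, and passed the filter only through R153A. Sox7 was called lower, from 2.18 ± 0.473 to 0.278 ± 0.0915 FPKM, and passed only through WT. Trophoblast markers summed to between 59.6 and 66.2 FPKM in WT and between 35.6 and 36.6 in R153A. The largest part of the sum was Tfap2c, which fell from 55.4 ± 3.24 to 19.8 ± 1.097 FPKM, and Eomes was also lower. Against the direction of the sum, Krt7 rose from 1.197 ± 0.328 to 7.61 ± 0.479 FPKM. Cdx2 rose from 0.117 ± 0.0364 to 2.78 ± 0.392 FPKM and passed the filter only through R153A. The part of such cells in the values of the 8 genes was not tested, and in bulk RNA fewer cells with a transcript and less of it per cell cannot be told apart.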

How the data were processed

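RNA-seq of 3 WT and 3 R153A libraries was used as 1 deposited table of FPKM values, made by the authors and used without further scaling. The build mm9 and the tools edgeR 3.26.8, HTSeq 0.11.2, Bowtie2 2.3.4.3 and SAMtools 1.9 are listed, with no role, per the submitters' processing notes. The sources used here do not name the tool and annotation behind the FPKM, or say whether strand was used. The low values showed no common per-read step, so no counts were recovered.

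Genes with an FPKM of at least 1 in at least 3 libraries were tested on log2(FPKM + 1) with limma 3.58.1 in R 4.3.3 (two-sided, mean-variance trend, Benjamini-Hochberg over 11817 genes, threshold 0.05). On simulated data with 200 changed genes among 11817, the fit of R153A against WT recovered 32% of changes of 0.25 on the log2 scale, 72% of 0.5, 96% of 1 and 100% of 2. In the data 7062 genes were called, and the adjustment of p-values depends on how many genes change. These shares therefore need not hold for the data. Folds are ratios of mean FPKM, given where a gene reached 0.1 FPKM in every library.

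The 8 genes and the 19 gene lists (206 entries, all in the table, Castor1 as Gatsl3) were chosen with earlier results of these data known. Named genes are the 8, then in each list some of the up to 4 called genes with the largest change and the gene with the highest mean. The 5 genes most like Tcl1 and Eras were also named. Where values of Nras, Rras2, Mtcp1, the Tcl1b genes, Sgk2, Sgk3, Mtor, Pik3cb, Gsk3a, Chac1, Asns, Trib3 as a stress gene, Sesn2, Atf3, Ndrg1, Grb2, Dppa3, Tsc22d3, Per1, Pou5f1, Dcn, Lum and neighbouring genes are given, these were picked with the values known. Values of some listed genes are not reported here. The 15 alternatives covered 2 pseudocounts, filters, scalings, no trend, the replicate block and leaving out each library. Promoter windows are from RefSeq, and all 8 genes matched. Figures were drawn with matplotlib 3.10.9 in Python 3.11.15.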

Additional observations from a re-analysis of the deposited data

How the results depend on the processing

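Under the 15 alternatives the number of the 8 genes called stayed between 5 and 6, with 3 lower in each and 2 or 3 higher, and leaving out any 1 library gave 5. The calls and directions of Tcl1, Eras, Akt1, Pdpk1 and Ddit4 held in all 15, with log2 fold changes from -2.86 to -2.66, from -0.48 to -0.37, from 0.39 to 0.52, from -0.76 to -0.61 and from 1.04 to 1.16. Under quantile normalization the uncalled changes of Pik3ca and Pik3r1 turned to -0.010 and -0.12, and the cause was not tested. Pik3ca passed without a trend (0.15, limma adjusted p = 0.0436). Genes called among all tested numbered between 4860 (filter of 5 FPKM, where fewer genes were tested) and 8265 (no filter), those higher 2901 with the filter of 5 FPKM against 4428 in the main test. The share of calls that were higher was 62.7%, but 50.7% under median-ratio scaling (3764 higher, 3655 lower) and 47.4% under quantile normalization (3515 and 3893). Pathway genes called lower rose from 23 to 35 under median-ratio scaling and to 38 under quantile normalization. With the replicate number as a block, 6876 genes and 5 of the 8 were called; correlations of deviations of same-numbered libraries lay between -0.049 and 0.060, so the numbers were not taken to pair the libraries. With no counts, the precision of low genes such as Pik3r1 cannot be set against depth.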
